A study of Homo sapiens with 27 samples.

Results

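Vehicle-treated UMSCC8 and UMSCC25 cells were compared by the abundance of each shRNA of a kinome library. Between the plates of the lines 86 shRNAs (2.77% of those tested) differed. The number lay between 4 and 236 when 1 plate was left out, and the plates of a line were split from the same selected cells. UMSCC8 and UMSCC25 are established cell lines of head and neck squamous cell carcinoma (HNSCC). The comparison is that of the 3 UMSCC8 DMSO plates against the 3 UMSCC25 DMSO plates, over all shRNAs whose counts in these 6 libraries came to 10 or more. This held for 3106 of the 3177 shRNAs listed, and the other 71 were left out. DMSO is the solvent of the inhibitors, so these cells met no inhibitor. The whole series holds 27 libraries in 9 groups of 3 plates, UMSCC8, UMSCC25 and UMSCC1 cells each with DMSO, gefitinib or AZD8931.

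In each line 6000000 cells on 2 plates were transduced with a lentiviral library of shRNAs against human kinases (MISSION TRC1), selected with 1 μg/ml puromycin for 5 days from 72 hours after transduction, and then treated. The UMSCC8 DMSO and UMSCC25 DMSO plates were kept for 72 hours in vehicle and for a further 72 hours in fresh medium. The gefitinib and AZD8931 plates of both lines, used here as further plates of each line, had the inhibitor in the first 72 hours. One field of the labels gives 300 nM gefitinib and 30 nM AZD8931, and another gives 1 μM for both. Gefitinib inhibits the EGFR and AZD8931 inhibits several ErbB receptors. The series was designed to compare inhibitor with vehicle within a line, and the difference between lines is a further comparison that its design allows.

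In a pooled screen of this kind each cell carries an integrated cassette that is transcribed into a short hairpin RNA, which is processed into a small interfering RNA and lowers the mRNA of its target. The cassette is copied with the genome at each division, so its share among the reads from genomic DNA follows the share of cells that carry it. That share depends on how many cells took up the virus, on how these cells divided and on sampling when cells are split. No library of the virus pool or of cells just after selection was analysed here, and each line was transduced on its own, so uptake, growth and sampling cannot be told apart in a difference between lines. The shRNAs are listed by clone number only. The files used here do not pair them with genes or hairpin sequences, and the paper pairs 6 of them with the TGF-β receptor genes TGFBR1 (TGFβRI) and TGFBR2 (TGFβRII). The other shRNAs are therefore described by their counts, and 4 of them by clone number.

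The total was 427180, 410641 and 506971 counts in the UMSCC8 DMSO libraries, and 460550, 468148 and 464740 counts in the UMSCC25 DMSO libraries. With 0 counts observed, as many as 3 could still be present on average, equal to 7.31 CPM (the count scaled to the library total in the usual way) in the shallowest of these libraries and 5.92 CPM in the deepest. The counts are of amplified reads, with no molecular identifier named in the sources, and such reads are not independent, so this limit covers only the error of counting. UMSCC8 DMSO replicate 1 stood apart, with 328 of the 3177 shRNAs at 0 counts. Replicates 2 and 3 of the same group had 87 and 81 at 0, and the UMSCC25 DMSO libraries had 123, 126 and 162.

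No difference in the evenness of the library was found between the lines. The effective number of shRNAs, which is the number of equally abundant shRNAs with the same Shannon entropy, was 1016 ± 18.5 in UMSCC8 DMSO plates and 1010 ± 26.8 in UMSCC25 DMSO plates (SD, n = 3 each, exact two-sided permutation p = 0.9). The 10 most abundant shRNAs took 19.8% ± 0.705 of the counts in UMSCC8 and 18.7% ± 0.626 in UMSCC25 (SD, n = 3 each, exact permutation p = 0.2). The number of shRNAs at 0 was 165 ± 141 in UMSCC8 and 137 ± 21.7 in UMSCC25 (SD, n = 3 each, exact permutation p = 1). Without UMSCC8 DMSO replicate 1 both remaining UMSCC8 plates had fewer shRNAs at 0 than any UMSCC25 plate. The smallest p that 3 plates against 3 can give is 0.1, so none of these measures could reach 0.05.

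Plates of different lines correlated less than most plates of 1 line. Over the 3177 shRNAs, the Pearson correlation of log2(CPM + 1) was 0.868 between UMSCC8 DMSO replicates 2 and 3, and 0.741 and 0.752 between replicate 1 and these. It lay between 0.893 and 0.903 among the UMSCC25 DMSO plates. Across lines it lay between 0.823 and 0.842 for UMSCC8 DMSO replicates 2 and 3, and between 0.694 and 0.719 for replicate 1. These values are descriptions over shRNAs of 1 library pool. The biological coefficient of variation, the spread between plates beyond counting error, was 56.7% in the UMSCC8 DMSO group and 30.7% in the UMSCC25 DMSO group, and 35.7% in UMSCC8 without replicate 1. Plates within a line had a reduced chi-square between 6.66 and 21.7, so no library was treated as a duplicate of another. Per the study's methods, the transduced and selected cells of a line were split into 9 plates, so the 3 plates are not independent transductions, and p-values measure only the spread between plates split from the selected cells of a line.

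Of the 3106 shRNAs, 54 were more abundant and 32 less abundant in UMSCC8 DMSO cells than in UMSCC25 DMSO cells (adjusted p under 0.05, edgeR's quasi-likelihood test with Benjamini-Hochberg adjustment). These are 1.74% and 1.03% of the shRNAs tested, 2.77% in all. At an unadjusted p under 0.05 there were 573 shRNAs, 18.4% of those tested. The median log2 fold change, UMSCC8 over UMSCC25, was 0.03 over all 3106 shRNAs, with quartiles of -0.45 and 0.59. Among the 54 shRNAs higher in UMSCC8 the median was 1.79, and among the 32 lower ones it was -1.17. A log2 fold change over 3 in size was held by 9 of the higher and 2 of the lower shRNAs, and one of at most 1 by 1 of the higher and 8 of the lower. For 1 of the higher shRNAs the UMSCC8 plates held 153 counts in sum and all 3 UMSCC25 plates had 0. That is at least 52.8-fold higher with the limit of 3 counts over the group, which covers only counting error. The edgeR adjusted p of this shRNA was 0.0412, close to the threshold. The other 53 had log2 fold changes between 0.90 and 5.32, and the 32 lower ones between -5.74 and -0.66.

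For all 86 shRNAs the plates of the lines did not overlap, which held for 26.5% of the 3106 shRNAs tested. The shRNAs higher in UMSCC8 took 6.33%, 6.52% and 5.81% of the counts in the UMSCC8 plates, against 2.18%, 2.16% and 2.12% in the UMSCC25 plates. The shRNAs lower in UMSCC8 took 2.22%, 2.69% and 2.44% in the UMSCC8 plates, against 4.84%, 4.52% and 4.43% in the UMSCC25 plates. These shares describe the shRNAs called on the same counts. UMSCC8 DMSO replicate 1 was the highest of its line for 28 of the 54 higher shRNAs and the lowest of its line for 18 of the 32 lower ones. Its part in the result was measured by leaving it out.

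The number of calls depended on single plates. Without UMSCC8 DMSO replicate 1, 118 shRNAs were higher and 118 lower in UMSCC8, and 85 of the 86 shRNAs were among them. Without UMSCC8 DMSO replicate 2 there were 59 calls and without replicate 3 there were 9. Without UMSCC25 DMSO replicate 1, 2 or 3 there were 4, 5 and 4 calls. Of the 85 called shRNAs with counts in both lines, 42 of the 53 higher and 29 of the 32 lower had an adjusted p above 0.03, close to the threshold.

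Calls were more frequent among abundant shRNAs, for which the error was smaller. None of the 178 shRNAs with a mean under 10 counts per library was called, and their median standard error of the log2 fold change was 1.65. Of the 898 shRNAs with a mean of 10 to 50 counts, 5 were called, each with a log2 fold change of at least 3.27 in size. Of the 1526 with 50 to 200 counts, 47 were called (3.08%), 37 of them higher in UMSCC8. Of the 481 with 200 to 1000 counts, 28 were called (5.82%), 17 of them lower. Of the 23 with over 1000 counts, 6 were called, with a median standard error of 0.16 in this class. In libraries simulated for this comparison with 3106 shRNAs, the test called 17.9% of the shRNAs changed 2-fold, 76.1% of those changed 4-fold and 78.8% of those changed 8-fold, and 6 of 2906 unchanged ones. The simulated counts came from the model that the test assumes, with the same spread in both lines. The real plates had a biological coefficient of variation of 56.7% in UMSCC8 DMSO and 30.7% in UMSCC25 DMSO. These shares may therefore not hold for the real plates.

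The shRNA with the lowest p was TRCN0000000374, one of the most abundant in either line. It had 8625, 8906 and 10248 counts in the UMSCC8 DMSO plates, against 2835, 2916 and 3076 counts in the UMSCC25 DMSO plates. Each UMSCC8 plate was thus far above each UMSCC25 plate, and the plates within a line were close. Its level was 20700 ± 858 CPM in UMSCC8 and 6330 ± 249 CPM in UMSCC25 (SD, n = 3 each), a log2 fold change of 1.68 (standard error 0.12, edgeR adjusted p = 5.41e-05) or 3.20-fold. The clones with the numbers before and after it, which like all but 6 shRNAs have no gene given here, had log2 fold changes of -0.43 and 0.15 (edgeR adjusted p = 0.461 and 0.848).

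TRCN0000003179 had the second lowest p and was scarce in UMSCC25. It had 224, 179 and 150 counts in the UMSCC8 DMSO plates, against 5, 2 and 7 counts in the UMSCC25 DMSO plates. The UMSCC25 counts lie near the limit of 3 that a count of 0 allows, while the UMSCC8 counts are above the median count of their libraries. Its level was 419 ± 115 CPM in UMSCC8 and 10.1 ± 5.44 CPM in UMSCC25 (SD, n = 3 each), a log2 fold change of 5.32 (standard error 0.51, edgeR adjusted p = 0.000616). The clones numbered just before and after it had log2 fold changes of -0.63 and -0.19 (edgeR adjusted p = 0.547 and 0.785).

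The lowest p among the shRNAs less abundant in UMSCC8 was that of TRCN0000039888. It had 22, 18 and 21 counts in the UMSCC8 DMSO plates, against 208, 170 and 158 counts in the UMSCC25 DMSO plates. The UMSCC8 plates were close to each other, UMSCC8 DMSO replicate 1 included. Its level was 45.6 ± 5.26 CPM in UMSCC8 and 385 ± 58.9 CPM in UMSCC25 (SD, n = 3 each), a log2 fold change of -3.10 (standard error 0.36, edgeR adjusted p = 0.00239). For the clone with the next number the log2 fold change was -0.86 (edgeR adjusted p = 0.258), and it was not called.

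TRCN0000111600 showed a smaller difference at a high level. It had 649, 575 and 691 counts in the UMSCC8 DMSO plates, against 1282, 1429 and 1290 counts in the UMSCC25 DMSO plates. Every UMSCC8 plate was about at the same level and below every UMSCC25 plate, with 1430 ± 81.6 CPM in UMSCC8 and 2870 ± 158 CPM in UMSCC25 (SD, n = 3 each). The log2 fold change was -1.04 (standard error 0.16, edgeR adjusted p = 0.0126), and the call was lost without UMSCC8 DMSO replicate 3, without any 1 of the UMSCC25 DMSO plates (adjusted p up to 0.148) and with a replicate block (adjusted p 0.0778). The clone with the next number had a log2 fold change of -1.02 (edgeR adjusted p = 0.03) and was called as well. The other 3 of these 4 shRNAs passed the threshold in all 18 alternatives tried for single shRNAs, which did not include the test against a 2-fold change (glmTreat).

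The gefitinib and AZD8931 plates hold the same line difference in libraries that the DMSO comparison did not use, though all plates of a line came from the transduced cells of that line. Of the 54 shRNAs higher in UMSCC8 with DMSO, 52 had the same sign with gefitinib and 52 with AZD8931. All 32 lower shRNAs had the same sign with each inhibitor. The share of same signs over all shRNAs tested was not computed, so these counts are not shown to be particular to the calls. No DMSO call was called in the opposite direction with either inhibitor. The median log2 fold change of the 54 was 1.79 with DMSO, 1.37 with gefitinib and 1.39 with AZD8931, and that of the 32 was -1.17 with DMSO, -1.32 with gefitinib and -1.14 with AZD8931.

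With gefitinib, 124 shRNAs were higher and 141 lower in UMSCC8 than in UMSCC25 of 3092 tested (4.01% and 4.56%, 8.57% in all, same edgeR test). With upper-quartile factors the split was 178 higher and 109 lower, and with total counts only it was 147 higher and 103 lower. These scalings moved the median log2 fold change of all shRNAs to 0.15 and 0.11, against 0.00 with TMM. UMSCC8 gefitinib replicate 3 had the lowest total of these plates, 178406 counts, and without it there were 133 calls. With AZD8931, 183 were higher and 175 lower of 3095 tested (5.91% and 5.65%, 11.6% in all), and leaving out 1 plate gave as few as 120 calls. Of the 54 higher DMSO calls, 22 were called higher with gefitinib and 33 with AZD8931, which is 40.7% and 61.1% of the DMSO calls and 17.7% and 18% of the higher calls with the inhibitor. Of the 32 lower DMSO calls, 18 were called lower with gefitinib and 22 with AZD8931, which is 56.2% and 68.8% of the DMSO calls and 12.8% and 12.6% of the lower calls with the inhibitor.

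In all 3 comparisons 20 shRNAs were called higher and 14 lower in UMSCC8, and 25 of the 86 DMSO calls were called with neither inhibitor. Seen from the inhibitor plates, 126 shRNAs were called in the same direction with gefitinib and with AZD8931. Of these, 125 had the same sign with DMSO, again with no share over all shRNAs to set beside it, and 34 were called there. Over the 3070 shRNAs tested in all 3 comparisons, the log2 fold change with DMSO had a Pearson correlation of 0.57 with that with gefitinib and of 0.57 with that with AZD8931, a description over shRNAs whose plates share the transduced cells of each line. Over the 2030 shRNAs with a mean of at least 50 counts in the DMSO plates these values were 0.62 and 0.65. Whether the line difference itself varied with the agent was tested as an interaction over the 18 libraries of both lines. No shRNA of 3128 passed an adjusted p of 0.05 (edgeR, smallest adjusted p 0.264), 232 had an unadjusted p under 0.05, and DESeq2's likelihood ratio test called 2.

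The 4 named shRNAs kept their direction with both inhibitors, which the rule that chose them required. TRCN0000000374 had 41700 ± 10000 CPM in UMSCC8 and 12200 ± 1580 CPM in UMSCC25 with gefitinib, and 32600 ± 7930 CPM in UMSCC8 and 12500 ± 2580 CPM in UMSCC25 with AZD8931 (SD, n = 3 each). TRCN0000003179 had log2 fold changes of 2.58 with gefitinib and 4.03 with AZD8931, against 5.32 with DMSO. Its UMSCC25 gefitinib plates held 12, 33 and 8 counts, and the interaction had an unadjusted p of 0.0132 and an adjusted p of 0.660 by edgeR. TRCN0000039888 had log2 fold changes of -3.03 with gefitinib and -3.83 with AZD8931. TRCN0000111600 had log2 fold changes of -1.74 with gefitinib and -1.12 with AZD8931.

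TGFBR1 and TGFBR2 encode the type I and type II receptors of TGF-β, kinases that act together: once TGF-β is bound, the type II receptor activates its type I partner by phosphorylation, and the type I kinase passes the signal to Smad proteins. In GENCODE release 29 (GRCh38) TGFBR1 spans chromosome 9, 99104038 to 99154192, and TGFBR2 spans chromosome 3, 30606502 to 30694142, both on the plus strand. Where in the genes the hairpins match was not analysed here. The study listed these 6 shRNAs for their response to inhibitors in libraries of the same series. Its controls were the UMSCC25 DMSO plates and, for the TGFBR2 shRNAs, also the UMSCC8 DMSO plates. The DMSO counts tested here were thus part of that choice. With DMSO, 1 of the 6 passed the test, beside 2.77% of all 3106 shRNAs.

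This was TRCN0000040008, which targets TGFBR2. It had 150, 36 and 32 counts in the UMSCC8 DMSO plates, against 8, 6 and 4 counts in the UMSCC25 DMSO plates. The lines did not overlap, and UMSCC8 DMSO replicate 1 was far above the other UMSCC8 plates. Its level was 167 ± 160 CPM in UMSCC8 and 12.9 ± 4.38 CPM in UMSCC25 (SD, n = 3 each), a log2 fold change of 3.64 (standard error 0.80, edgeR adjusted p = 0.0412), at place 57 of 3106 by p. Without UMSCC8 DMSO replicate 1 the log2 fold change was 2.48 and the adjusted p 0.0678, and it was called in 10 of 18 alternatives, with an adjusted p between 0.000586 and 0.211.

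The other TGFBR2 shRNA, TRCN0000040011, had 47, 48 and 97 counts in the UMSCC8 DMSO plates, against 52, 54 and 73 counts in the UMSCC25 DMSO plates. The lines overlapped, with a log2 fold change of 0.09 (standard error 0.42, edgeR adjusted p = 0.930). So 1 of the 2 shRNAs paired with TGFBR2 passed the test and the other did not. In the inhibitor plates TRCN0000040008 again had no overlap between lines, as had 29.9% of all shRNAs tested with gefitinib and 31.5% with AZD8931. With gefitinib it had 11, 37 and 17 counts in UMSCC8, against 0, 10 and 1 counts in UMSCC25, a log2 fold change of 2.68 (standard error 1.11, edgeR adjusted p = 0.135). With AZD8931 it had 27, 76 and 32 counts in UMSCC8, against 6, 5 and 0 counts in UMSCC25, a log2 fold change of 3.51 (standard error 0.83, edgeR adjusted p = 0.00988).

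None of the 4 TGFBR1 shRNAs passed the test with DMSO. TRCN0000039777, the most abundant of them, had 81, 49 and 103 counts in UMSCC8 DMSO plates, against 100, 48 and 107 counts in UMSCC25 DMSO plates. Its log2 fold change was -0.12 (standard error 0.42, edgeR adjusted p = 0.906). TRCN0000039775 had 101, 8 and 26 counts in UMSCC8, against 50, 28 and 39 counts in UMSCC25, a log2 fold change of 0.26 that was -1.26 without UMSCC8 DMSO replicate 1, which held most of its UMSCC8 counts. TRCN0000039776 had 1, 33 and 38 counts in UMSCC8, against 50, 43 and 23 counts in UMSCC25, with the lowest value in UMSCC8 DMSO replicate 1. Its log2 fold change was -0.70 (standard error 0.91), and -0.14 without that replicate. TRCN0000039774 had 0, 5 and 5 counts in UMSCC8, against 3, 0 and 17 counts in UMSCC25, too few to compare. With gefitinib it had 10, 7 and 5 counts in UMSCC8 and 0 in all 3 UMSCC25 plates. That is at least 8.60-fold higher in UMSCC8 with the limit of 3 counts over the group, which covers only counting error. It missed the threshold there (edgeR adjusted p = 0.0536). The study listed this shRNA for gefitinib in UMSCC25 on these same 0 counts, so the fold is not separate from that choice.

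Nearly all shRNAs were present in both lines. Of the 3177 listed, 2766 had counts in all 6 DMSO plates and 44 had none in any of them. There were 9 shRNAs with counts in all 3 UMSCC8 plates and 0 in all 3 UMSCC25 plates, with 14 to 153 counts over the UMSCC8 plates (median 37), and 1 of them was called. No shRNA had counts in all 3 UMSCC25 plates and 0 in all 3 UMSCC8 plates. Without UMSCC8 DMSO replicate 1 the numbers were 15 and 0. Of the 328 shRNAs at 0 in UMSCC8 DMSO replicate 1, 172 had counts in each of the other 5 plates. None of the 328 was called, beside 2.77% of the 3106 shRNAs tested, and not all of the 328 were tested. Their counts made calls unlikely, with a median of 50 counts over the 6 plates. With a UMSCC8 plate at 0, the UMSCC8 plates also cannot all lie above the UMSCC25 plates. The absence of calls therefore does not measure the effect of that plate on the result.

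UMSCC1, the third line of the series, gives a further level for each shRNA, compared here by mean CPM in DMSO plates with no test. Of the 54 shRNAs higher in UMSCC8 than in UMSCC25, the UMSCC1 level lay between the 2 lines for 39, above both for 2 and below both for 13. It was nearer to UMSCC8 for 19 and to UMSCC25 for 35 on the scale of log2(CPM + 1). Of the 32 shRNAs lower in UMSCC8, it lay between for 22, above both for 2 and below both for 8. It was nearer to UMSCC8 for 23 of them and to UMSCC25 for 9. In both sets the UMSCC1 level was thus more often nearer to the line with the lower level. The same shares over all shRNAs were not computed, so a likeness of UMSCC1 to either line was not tested. TRCN0000000374 had 8850 ± 2060 CPM in UMSCC1, TRCN0000003179 had 35.8 ± 30.6 CPM, TRCN0000039888 had 42 ± 14.4 CPM and TRCN0000111600 had 1430 ± 498 CPM (SD, n = 3 each). The first pair was thus nearer to UMSCC25 and the second pair nearer to UMSCC8. TRCN0000040008 had 47.1 ± 36.3 CPM in UMSCC1 (SD, n = 3), between the other 2 lines. UMSCC1 DMSO replicate 2 had the lowest total of that group, 258742 counts, and 14.0% of them came from 1 shRNA.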

How the data were processed

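Cassettes were amplified from each plate's genomic DNA and sequenced. The authors deposited the values as raw, unnormalized counts for every shRNA in every library. Bowtie 1.0.0, edgeR and hg19 appear in the submitters' processing notes with no role stated, and the methods refer to BiNG!S for read analysis. Mismatch settings are not given in the sources used here. Samples were grouped by line, agent and replicate in their titles, and all 27 columns matched a title.

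Counts of UMSCC8 and UMSCC25 plates were compared by the quasi-likelihood test of edgeR 4.0.16 (R 4.3.3, robust dispersion and quasi-likelihood fits), with TMM factors, the 6 libraries of an agent in 1 fit, at least 10 counts summed over them, and a threshold of 0.05 on the Benjamini-Hochberg adjusted p. Log2 fold changes are UMSCC8 over UMSCC25, with standard errors from the quasi-likelihood F. CPM values are relative to the library total without TMM factors. Single values per plate were tested by exact permutation of plates. The fit was tested on simulated data.

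Named shRNAs are the 6 paired with TGFBR1 or TGFBR2, and the 2 higher and 2 lower ones with the lowest p among those called with DMSO, gefitinib and AZD8931, without overlap of the DMSO plates and with at least 10 counts in each DMSO plate of the higher line. The shRNAs and rules were chosen with earlier results of these data known. The alternatives were RLE or upper-quartile factors, total counts only, 2 other filters, DESeq2 1.42.0, the edgeR exact test, limma-voom (limma 3.58.1), all 18 libraries of both lines in 1 fit, a replicate block, glmTreat against a 2-fold change, thinning, and leaving out each library. GlmTreat was used for the numbers of calls and not for single named shRNAs. A fit without robust estimation was added after the data were seen. Of UMSCC1, only DMSO levels were used.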

Additional observations from a re-analysis of the deposited data

How the results depend on the processing

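The 86 calls between UMSCC8 and UMSCC25 with DMSO became 255 with DESeq2, 213 with the edgeR exact test, 45 with limma-voom (20 higher and 25 lower), 141 with all 18 libraries in 1 fit and 4 with glmTreat against a 2-fold change. The 265 calls with gefitinib became 413 with DESeq2 and 13 with glmTreat, and the 358 with AZD8931 became 204 with all 18 libraries in 1 fit and 16 with glmTreat. Apart from the replicate block, the other settings, including scalings, filters, thinning and the fit without robust estimation kept each count within 1.5 times. Leaving out 1 library gave between 4 and 236 calls with DMSO, between 43 and 288 with gefitinib (43 without UMSCC8 replicate 1, 91 without UMSCC8 replicate 2, 133 without UMSCC8 replicate 3 and 159 without UMSCC25 replicate 2) and between 120 and 390 with AZD8931 (180, 177 and 120 without UMSCC8 replicate 1, 2 or 3, and 214 without UMSCC25 replicate 2). The interaction gave 0 calls by edgeR, also with RLE factors, filterByExpr, the replicate block or any library left out, and 2 with DESeq2.

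The replicate numbers share nothing that the labels state, so the main fit did not pair plates by number. Deviations from the group mean correlated between -0.229 and 0.166 over the 9 pairs of same-numbered plates of the lines. Between differently numbered plates they correlated between -0.171 and 0.208. With so few plates per group these values cannot settle whether plates of 1 number share a batch. With a replicate block there were 5 calls with DMSO, 108 with gefitinib and 345 with AZD8931.

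Differences that turned sign were all below the threshold. TRCN0000039774 lay between -1.53 and 1.08 on the log2 scale when a library was left out, TRCN0000039775 between -1.26 and 0.74 (and -0.42 with limma-voom and -0.37 with the replicate block), TRCN0000039777 between -0.40 and 0.06, and TRCN0000040011 between -0.21 and 0.25. At these depths a mean under 10 counts per library gave no call, but of these shRNAs only TRCN0000039774 had so low a mean. The causes of these changes were not tested.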

Other observations

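Clone numbers that follow each other give a further view of the difference between the lines, since the 4 TGFBR1 shRNAs carry successive numbers. Among the shRNAs tested with DMSO there were 2677 pairs of successive numbers. Both members were called in 5 pairs, in the same direction in 3 of them, and 1 member was called in 131 pairs. Of single shRNAs 2.77% were called, a share that cannot be set directly against these counts of pairs. In 77 of these 131 pairs the other member had the same sign. The share of same signs over all pairs was not computed, and whether these counts exceed those of unrelated shRNAs was not tested. Over all 2677 pairs the Pearson correlation of the log2 fold changes was 0.06, a description over shRNAs that share the same 6 libraries. Which of these pairs target 1 gene was not analysed here.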
